A study of Bos grunniens and Bos grunniens x Bos taurus with 2 samples.

Results

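Among the 26961 genes counted in testis cells of a yak and a cattle-yak, 7 encode or are annotated as small secreted defence proteins and protease inhibitors: *WFDC2*, *DEFB123*, ENSBGRG00000015536, ENSBGRG00000015690, ENSBGRG00000007612, ENSBGRG00000007655 and ENSBGRG00000007806. They were picked by symbol or identifier, and all 7 were found in the feature table of both libraries. The yak library (*Bos grunniens*) and the cattle-yak library (*Bos grunniens x Bos taurus*, the cross of yak and cattle) each came from the testis of 1 animal past sexual maturity, without treatment, prepared from frozen tissue by the same enzyme digestion and captured on the 10x Genomics platform. The yak was a healthy male, and the cattle-yak is not described further in the sources used here. With 1 library per group there is no replicate, so no significance test was run, and species, animal, tissue piece and library cannot be told apart.

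*WFDC2* (also called HE4) is a secreted protein with whey acidic protein (WAP) domains and is abundant in epithelia of the airways and the male reproductive tract. Beta-defensins, the family of *DEFB123*, are short cationic peptides that attack microbes, and many of them are made along the epididymis. Cystatins block cysteine proteases such as the cathepsins, and several members of the family belong to the testis and epididymis. Sertoli cells, the somatic cells that nurse germ cells inside the seminiferous tubule, are marked here by *SOX9*, *INHA* (the inhibin alpha subunit) and *CITED1*. The 5 genes with an identifier have no symbol in the feature table. The study's annotation put ENSBGRG00000015536 and ENSBGRG00000015690 beside *DEFB123* among genes of defence against bacteria, and ENSBGRG00000007612, ENSBGRG00000007655 and ENSBGRG00000007806 among inhibitors of cysteine proteases. They are called defensin-annotated and cystatin-annotated genes below, and how reads of near-identical family members were divided among them is not known. All 7 genes stand among the study's Sertoli cell markers in the yak library, so a high level in yak Sertoli-marked cells was built into the choice and is given as a description.

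The yak library held 60816600 unique molecular identifiers (UMIs, each counting 1 captured transcript) in 11991 cells, and the cattle-yak library 43774841 in 8930 cells. Cells with a mitochondrial share under 30% were kept, which left 11114 and 7620. This limit touches the genes described here, because most of their cattle-yak UMIs lay in the 1310 cells left out, and values without it are given below. The kept cells formed 29 yak and 32 cattle-yak clusters, made without the 7 genes. Of these, 2 per library carry the results: the cluster with the most *WFDC2*, and the Sertoli-marker cluster. A total of 24 barcodes occurred in both libraries, and the cells were kept apart.

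*WFDC2* and the 3 defensin-annotated genes marked different cells in both libraries, while the 3 cystatin-annotated genes, also highest in the Sertoli-marker clusters, overlapped in part with *WFDC2*. *WFDC2* was counted in the yak WFDC2-richest cluster at 4640 UMIs per 1000000 UMIs (CPM, 95% counting interval 4426 to 4862) and in the cattle-yak WFDC2-richest cluster at 7354 CPM (7061 to 7657). The 3 defensin-annotated genes were at or near 0 in those clusters. In the yak Sertoli-marker cluster the levels were 1723 CPM for *DEFB123*, 2810 CPM for ENSBGRG00000015536 and 1899 CPM for ENSBGRG00000015690, whereas *WFDC2* stood at 49.0 CPM, from 5 UMIs in 1 cell. In the cattle-yak Sertoli-marker cluster the same 3 genes reached 454, 1685 and 241 CPM, and *WFDC2* 8.30 CPM, from 3 UMIs. CPM is the summed UMI count of a gene over a group of cells, scaled to 1000000 UMIs of all genes in that group. Its interval covers counting error and not the difference between animals, and levels of different genes are not ranked because their capture is not known to be equal.

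**Figure D1:**
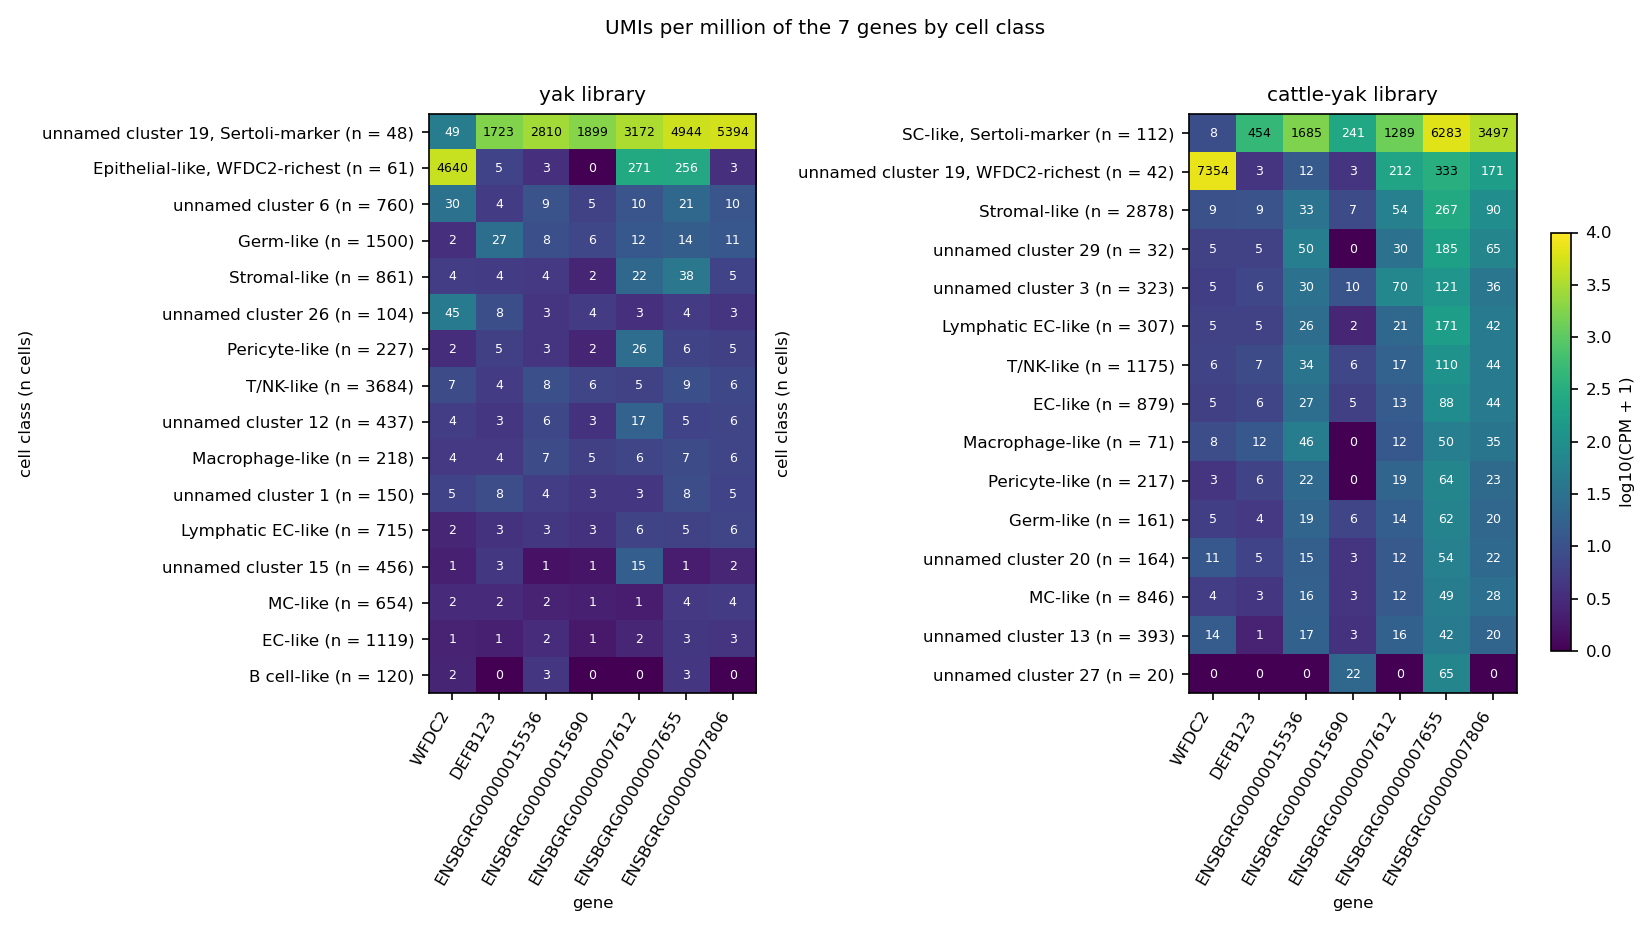
Level of the 7 genes (columns) in each class of kept cells (rows, with the number of cells) of the yak library (left) and the cattle-yak library (right). Each cell of the map is coloured by log10(CPM + 1) and carries the CPM; *WFDC2* peaks in the WFDC2-richest cluster (4640 and 7354 CPM) and the other 6 genes in the Sertoli-marker cluster of each library.

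The name epithelial held for the *WFDC2* cells, in part, and not for the cells with defensin-annotated genes. The yak WFDC2-richest cluster had 61 cells (median 2792 UMIs) and met the rule for epithelial-like cells through *KRT18*, *KRT7*, *ELF3* and *PAX8*, of which *PAX8* is a transcription factor of duct and kidney epithelia. *PAX8* stood at 511 CPM there, against 3.41 CPM in the other kept cells. The same cluster carried the Sertoli cell regulators *SOX9* at 335 CPM and *WT1* at 227 CPM, whereas *EPCAM*, a general epithelial marker, was at 31.6 CPM, below the 74.3 CPM of the other cells. The cattle-yak WFDC2-richest cluster had 42 cells (median 5276.5 UMIs) and was left unnamed. It had 3 enriched genes of the SC-like list (*SOX9*, *GATA4* and *WT1*) and 2 of the epithelial-like list (*KRT7* and *PAX8*), but *PAX8* and no gene of the SC-like list was among its 10 leading genes. *PAX8* reached 514 CPM and *SOX9* 489 CPM in it, close to the yak values. *INHA* was counted 3 times in each of these clusters (7.91 and 9.35 CPM). Of the epithelial-like list, 4 of 7 measured genes were at least 2-fold higher than in the other yak cells and 2 of 5 in the cattle-yak, and of the SC-like list (Sertoli cell markers) 3 of 6 in either library, namely *SOX9*, *GATA4* and *WT1*.

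The Sertoli-marker clusters differed from these in *INHA* and in the epithelial-like list. Raised *SOX9* and *GATA4* were common to both kinds of cluster, so the SC-like list as a whole did not divide them. The yak one had 48 cells with a low median of 992.5 UMIs, and it stayed unnamed because only *SOX9* and *INHA* were enriched in a sufficient share of cells, where 3 markers were required. The cattle-yak one had 112 cells (median 1408.5 UMIs) and met the rule for SC-like cells through *SOX9*, *INHA* and *CITED1*. *INHA* stood at 1801 CPM in the yak cluster and 802 CPM in the cattle-yak cluster. Of the epithelial-like list, 0 of 7 measured genes were at least 2-fold higher in the yak Sertoli-marker cluster and 1 of 5 in the cattle-yak one, namely *PAX8*, from 13 UMIs in 4 cells. Of the SC-like list, 4 of 6 were higher in either library, namely *SOX9*, *GATA4*, *INHA* and *NR5A1*. Because these clusters were picked by the SC-like list, its count and the *INHA* levels are a description and no evidence of identity. In the yak, coarser clustering, other numbers of variable genes or components, and a stricter mitochondrial limit joined the 2 clusters into 1, and the stricter limit did so in the cattle-yak, so the comparison of single cells given below does not use their border.

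The contrast of each cluster with all other kept cells gave the same division. In the yak WFDC2-richest cluster 3 of the 7 genes were at least 2-fold higher, against 9.95% of the 14357 genes with at least 50 UMIs. These were *WFDC2*, which ranked first of all genes with a log2 ratio of 9.59 (1 CPM added to both sides), and the cystatin-annotated ENSBGRG00000007612 at 4.14 and ENSBGRG00000007655 at 3.80. In the cattle-yak WFDC2-richest cluster the count was again 3 of 7, against a background of 10.6%: *WFDC2* ranked first at 9.75, ENSBGRG00000007612 followed at 2.49 and ENSBGRG00000007806 at 1.17, and ENSBGRG00000007655 at 0.95 fell just short. The rank of *WFDC2*, and so its place in both counts, was fixed by the way these clusters were picked. Only the other genes can be set against the background. The median log2 ratio of the 7 genes was -0.96 in the yak and 0.95 in the cattle-yak WFDC2-richest cluster, beside medians of -0.54 and -0.32 over all genes.

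In the Sertoli-marker clusters, 6 of the 7 genes were at least 2-fold higher than in the other kept cells of either library. The background was 9.63% of genes in the yak library and 7.63% in the cattle-yak library. The 6 log2 ratios ran from 7.55 (*DEFB123*) to 9.64 (ENSBGRG00000007806) in the yak, and from 5.43 (ENSBGRG00000015690) to 6.29 (ENSBGRG00000007806) in the cattle-yak. The cattle-yak ranks lay between 7 and 15 of 12428 genes, so each of the 6 was among the genes most raised in these cells. The median over all 7 was 8.76 and 5.77, beside -1.24 and -0.68 over all genes. Summed, the 7 genes stood at a log2 ratio of 6.03 in the yak WFDC2-richest cluster, almost wholly from *WFDC2*, and of 5.54 in the cattle-yak Sertoli-marker cluster, from the other 6. Outside the cluster the 6 genes were higher in the cattle-yak than in the yak cells for 5 of 6, for example 114 against 10.4 CPM of ENSBGRG00000007655.

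At the level of single cells, no kept cell carried 3 or more UMIs both of *WFDC2* and of the defensin-annotated genes. In the kept yak cells, 38 cells had at least 3 UMIs of *WFDC2* and 77 had at least 3 of the 3 defensin-annotated genes summed, and 0 cells had both. This count of 0 in 38 allows a share of up to 7.89%. In the kept cattle-yak cells the numbers were 32, 120 and 0, which allows up to 9.38%. With every deposited cell included, they were 46, 85 and 0 in the yak and 43, 537 and 0 in the cattle-yak. The overlap was 0 as well under each alternative limit on the cells. Cells with 3 or more defensin-annotated UMIs were rare, at 77 of 11114 yak and 120 of 7620 cattle-yak kept cells. Over all kept cells, the 0 therefore cannot tell exclusion from rarity. The yak Sertoli-marker and WFDC2-richest clusters held 109 cells. Of these, 34 had at least 3 UMIs of *WFDC2*, 33 of the defensin-annotated genes and 0 of both. In the cattle-yak the 154 cells gave 28, 78 and 0. The clusters were picked by *WFDC2* or Sertoli cell markers. At a minimum of 1 UMI, 22 of 239 kept yak and 44 of 227 kept cattle-yak *WFDC2* cells also had a defensin-annotated UMI (9.21% and 19.4%). Of all kept cells, 660 of 11114 in the yak and 1107 of 7620 in the cattle-yak had one. How much of this overlap is background was not tested. The *WFDC2* cells with at least 3 UMIs had medians of 4884.5 and 6811.5 UMIs of all genes, and none of them held more than 1 defensin-annotated UMI.

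The cystatin-annotated genes were less strictly divided. Among the 38 yak cells with at least 3 *WFDC2* UMIs, 15 also had at least 3 UMIs of the 3 cystatin-annotated genes summed, and 23 of 32 did so in the cattle-yak. Of all kept cells, 99 of 11114 in the yak and 733 of 7620 in the cattle-yak had as many. The *WFDC2* cells were deeper, with medians of 4884.5 and 6811.5 UMIs against 2672.5 and 3160.5 for all kept cells. ENSBGRG00000007612 stood at 271 CPM (222 to 329) in the yak and 212 CPM (165 to 269) in the cattle-yak WFDC2-richest cluster, and ENSBGRG00000007655 at 256 CPM (207 to 312) and 333 CPM (273 to 403). For both genes the intervals of the libraries overlap. The cattle-yak level of ENSBGRG00000007655 lay below the 408 CPM of the highest stromal-like cluster, and lymphocytes (T/NK-like cells) held 110 CPM. How much of the overlap with *WFDC2* is background was not tested. ENSBGRG00000007806 differed between the libraries, with 1 UMI (2.64 CPM) in the yak and 55 UMIs (171 CPM) in the cattle-yak cluster. Its background differed too, at 6.50 CPM in yak and 44.2 CPM in cattle-yak lymphocytes.

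**Figure D2:**
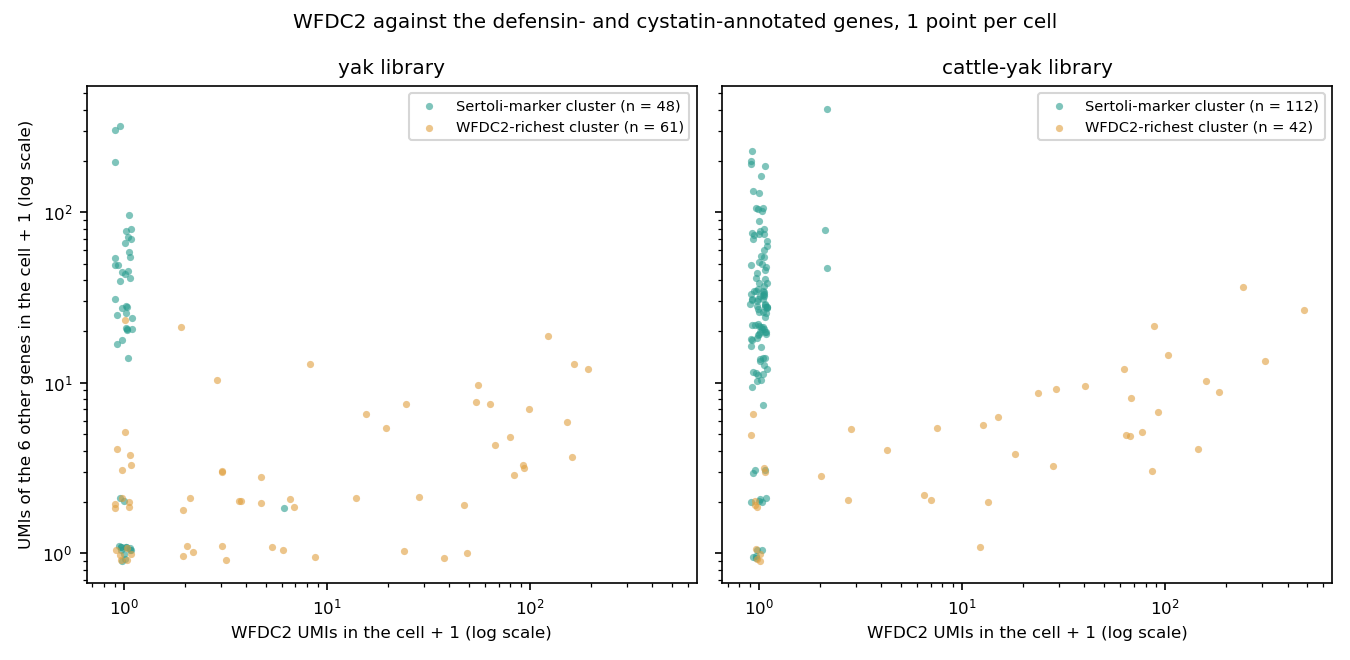
Each point is 1 cell of the Sertoli-marker cluster (green) or the WFDC2-richest cluster (orange), with its *WFDC2* UMIs + 1 on the x axis and its UMIs of the other 6 genes + 1 on the y axis, both on a log scale and shifted slightly at random to separate equal values. Green points reach up to 298 UMIs of the 6 genes in the yak and 371 in the cattle-yak library and, apart from 1 yak and 3 cattle-yak cells with a *WFDC2* UMI, lie along the left edge, and orange points spread to the right up to 207 and 441 *WFDC2* UMIs.

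When the cells were brought to an equal depth by drawing 1000 UMIs from each, 63.5% of the 52 yak WFDC2-richest cells deep enough had a UMI of *WFDC2* (exact binomial interval 49.0% to 76.4%), and 9 shallower cells were left out. Without thinning the share was 72.1%. The same share was 0.744% in T/NK-like cells (T and natural killer lymphocytes), which should lack the gene, at a median of 1941.5 UMIs per cell. In the cattle-yak the thinned shares were 77.1% of 35 cells and 0.441%. *DEFB123* had a UMI in 62.5% of 24 thinned yak Sertoli-marker cells and 38.0% of 71 cattle-yak ones, against 0.372% and 0.969% of T/NK-like cells. Since these clusters were chosen by *WFDC2* or by Sertoli cell markers, and the genes among the study's Sertoli cell markers, the shares are a description.

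The 6 genes were detected together. In the yak Sertoli-marker cluster 30 of 48 cells had a UMI of all 6 genes and 3 of 5 genes, whereas 12 had none and 3 had 1, with no cell between. The 33 cells with 5 or 6 genes held 13 to 298 UMIs of them (median 41) and 0 UMIs of *WFDC2*. Their median depth of 1004 UMIs was above the 750 of the 15 cells with 2 genes or fewer. Those 15 were uneven, however, and included the deepest cells of the cluster. The deepest held 13098 UMIs of all genes and 1 of the 6 genes, and the next 12865 and 0. All 15 count in the CPM of the cluster. In the cattle-yak SC-like cluster 68 of 112 cells had 5 or 6 of the genes. The 13 cattle-yak cells with 2 or fewer were deep, with a median of 8703 UMIs against 1298.5 for the cells with 5 or 6. In the WFDC2-richest clusters 0 of 61 and 0 of 42 cells had 5 or 6 of the genes, which allows shares of up to 4.92% and 7.14%.

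**Figure D3:**
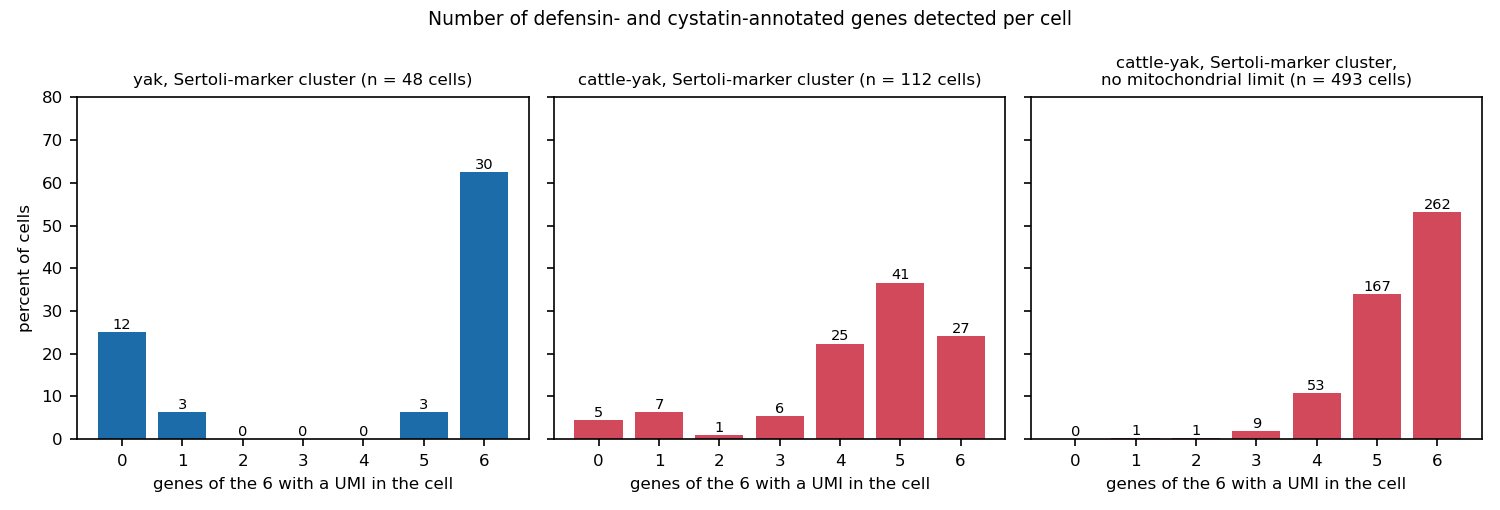
Number of the 6 defensin- and cystatin-annotated genes with at least 1 UMI in a cell (x axis) against the percent of cells (y axis), with the number of cells above each bar, in the yak Sertoli-marker cluster, the cattle-yak one, and the cattle-yak one without the mitochondrial limit. The yak cells fall at 0 or 1 gene (15 cells) and at 5 or 6 genes (33 cells), and 262 of the 493 cattle-yak cells in the right panel had all 6.

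Clustering the cells of both clusters once more, again without the 7 genes and chosen after the data had been seen, separated only part of the yak cells further. A yak subcluster of 26 cells met the SC-like rule through *SOX9*, *GATA4*, *INHA* and *CITED1*. *WFDC2* was at 0 UMIs in it, and the 6 other genes ran from 2794 CPM (*DEFB123*) to 9120 CPM (ENSBGRG00000007806). Another yak subcluster of 26 deep cells (median 8026.5 UMIs) was epithelial-like, with *WFDC2* at 3993 CPM and the defensin-annotated genes between 3.35 and 23.5 CPM. The remaining yak subcluster mixed 21 cells of the Sertoli-marker cluster with 36 of the WFDC2-richest cluster. Of these, 1 and 23 cells had a *WFDC2* UMI, and single cells held up to 12 defensin-annotated UMIs. The cattle-yak subcluster richest in the 6 genes had 78 cells, in which ENSBGRG00000007655 stood at 11611 CPM and *WFDC2* at 208 CPM, above its level in the Sertoli-marker cluster. All 24 of its *WFDC2* UMIs lay in 5 of the 11 cells it took in from the WFDC2-richest cluster.

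The mitochondrial limit decided how much of the cattle-yak signal was seen. Cells with a mitochondrial share of 30% or more held between 76.9% and 83.0% of the cattle-yak UMIs of each of the 6 genes, but 9.36% of those of *WFDC2*. In the yak they held between 9.99% and 19.0%, and 4.20% of *WFDC2*. Without the limit, the cattle-yak Sertoli-marker cluster grew to 493 cells with a median mitochondrial share of 47.3% and a median of 4702 UMIs. It held 78.9% to 85.5% of the library's UMIs of each of the 6 genes, 80.6% of those of *INHA* and 0.514% of those of *WFDC2*. Of its cells, 429 (87.0%) had 5 or 6 of the genes.

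Inside that cluster the 393 cells above the limit and the 100 below it carried the genes at like levels per UMI of all genes, mitochondrial ones included. The median mitochondrial share was 50.9% in the cells above and 18.3% in the cells below. A level per non-mitochondrial UMI, not computed here, would therefore be raised more in the cells above. ENSBGRG00000007655 stood at 8875 CPM (8756 to 8995) in the cells above and 8812 CPM (8452 to 9184) in the cells below, and ENSBGRG00000015690 at 339 and 344 CPM. *DEFB123* was at 717 CPM (684 to 752) above and 638 CPM (543 to 743) below. The largest gap was in ENSBGRG00000007806, at 4030 CPM (3950 to 4111) above and 4932 CPM (4664 to 5212) below. In the yak, leaving out the limit merged kinds of cell: the Sertoli-marker cluster then had 88 cells, 518 *WFDC2* UMIs, and 40 cells with 5 or 6 of the genes.

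Between the libraries, the kept cells differed most in ENSBGRG00000007655. Summed over all kept cells the 7 genes reached 112 CPM in the yak and 414 CPM in the cattle-yak, a log2 ratio of 1.89 (1.84 to 1.93) beside a median of -0.15 over all genes. ENSBGRG00000007655 stood at 19.0 CPM in the yak and 173 CPM in the cattle-yak (log2 3.19). The log2 ratio was 2.35 for ENSBGRG00000007806 (15.1 and 76.7 CPM), 2.07 for ENSBGRG00000015536 (9.52 and 39.9 CPM) and 1.25 for ENSBGRG00000007612 (16.1 and 38.2 CPM). *WFDC2* stood at 34.8 and 69.6 CPM, at a log2 ratio of 0.998 just short of 2-fold. *DEFB123* (11.2 and 9.85 CPM) and ENSBGRG00000015690 (6.46 and 6.84 CPM) had intervals of the ratio that cover or touch 0. So 4 of 7 genes were at least 2-fold higher in the cattle-yak library, against 2.23% of 13942 genes, and 0 of 7 were 2-fold lower, against 17%. Without the mitochondrial limit the log2 ratio of the sum was 3.51 (124 and 1415 CPM), that of *WFDC2* 0.92, and *DEFB123* at 2.06 and ENSBGRG00000015690 at 1.76 were then also more than 2-fold higher in the cattle-yak. How many cells of a kind a library holds and how much RNA each of them carries both enter these sums. So do the low counts in other cells: 4304 of the 6575 kept cattle-yak UMIs of ENSBGRG00000007655 lay outside the Sertoli-marker cluster. Lymphocytes, taken as background below, differed between the libraries by a log2 ratio of 3.67 for this gene.

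Within the Sertoli-marker clusters 5 of the 6 genes were lower in the cattle-yak. Among them, ENSBGRG00000015536, ENSBGRG00000007612 and ENSBGRG00000007806 had been higher there over all kept cells. ENSBGRG00000015690 was lower in the cattle-yak by a log2 ratio of -2.98 (interval -3.36 to -2.61; 1899 and 241 CPM), *DEFB123* by -1.93 (1723 and 454 CPM) and ENSBGRG00000007612 by -1.30 (3172 and 1289 CPM). ENSBGRG00000015536 (-0.74) and ENSBGRG00000007806 (-0.63) stayed within 2-fold, and ENSBGRG00000007655 was slightly higher in the cattle-yak (0.35, interval 0.21 to 0.49). Of 422 genes with at least 100 UMIs over both clusters, 6.4% were 2-fold higher and 4.03% 2-fold lower. In the cells that the second clustering found richest in the 6 genes, ENSBGRG00000015690 (-2.39) and *DEFB123* (-1.33) were again lower in the cattle-yak and ENSBGRG00000007655 (0.48) again higher, and ENSBGRG00000007612 at -0.98 was just short of 2-fold, with 2.91% of 172 genes higher and 2.33% lower. In the WFDC2-richest clusters *WFDC2* differed by a log2 ratio of 0.66 (0.57 to 0.75), with 1.89% of 792 genes higher and 5.18% lower. ENSBGRG00000007806 differed there by 6.02 (3.49 to 11.4), from 1 yak UMI, and by 2.77 in T/NK-like cells, taken as background. Without the mitochondrial limit the log2 ratio in the Sertoli-marker clusters was -1.77 for ENSBGRG00000015690 and 1.58 for ENSBGRG00000007655. *DEFB123* at -0.55 and ENSBGRG00000007612 at -0.39 were then no longer 2-fold lower. The ratio of ENSBGRG00000015536 turned to 0.47 and that of ENSBGRG00000007806 to 0.35, with the yak side then mixed with *WFDC2* cells. The median mitochondrial share was then 4.79% in the yak and 47.3% in the cattle-yak cluster. Mitochondrial UMIs count in the CPM, which lowers the cattle-yak side by an amount not computed here.

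The mix of the 6 genes in the Sertoli-marker cells also differed between the libraries. ENSBGRG00000007655 gave 24.8% of the 2037 UMIs of the 6 genes in the yak Sertoli-marker cluster (interval 22.9% to 26.7%) and 46.7% of 4861 in the cattle-yak one. ENSBGRG00000015690 gave 9.52% in the yak and 1.79% in the cattle-yak, and *DEFB123* 8.64% and 3.37%. ENSBGRG00000015536 (14.1% and 12.5%) and ENSBGRG00000007806 (27.0% and 26.0%) differed little. Without the mitochondrial limit, at 48010 UMIs, the cattle-yak mix had 49.0% of ENSBGRG00000007655 and 1.87% of ENSBGRG00000015690.

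**Figure D4:**
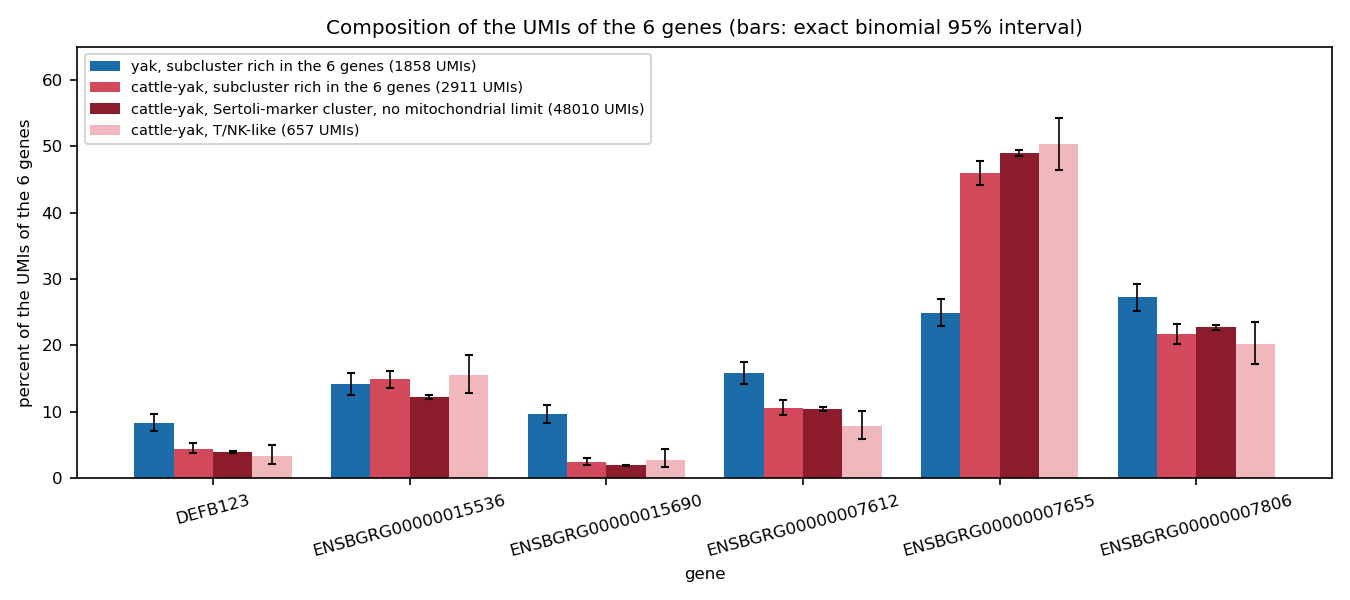
Share of each gene (x axis) in the summed UMIs of the 6 defensin- and cystatin-annotated genes (y axis, percent), in the yak subcluster richest in them (blue, 1858 UMIs) and in 3 groups of cattle-yak cells (reds and pink: the matching subcluster, the Sertoli-marker cluster without the mitochondrial limit, and T/NK-like cells); error bars are exact binomial 95% intervals of counting. The 3 cattle-yak groups lie near each other for every gene, while the yak cells hold less ENSBGRG00000007655 and more ENSBGRG00000015690.

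Outside these clusters the 6 genes were counted at low levels in every cattle-yak class with more than 50 cells except for ENSBGRG00000015690, which was at 0 in macrophage-like and pericyte-like cells. Cattle-yak T/NK-like cells held ENSBGRG00000007655 at 110 CPM (98.5 to 123), with a UMI in 20.3% of cells, against 8.62 CPM in yak T/NK-like cells (log2 3.67). The mix in the cattle-yak lymphocytes held 50.4% of ENSBGRG00000007655, 15.5% of ENSBGRG00000015536 and 20.2% of ENSBGRG00000007806. The share of ENSBGRG00000007655 was 48.2% in EC-like (endothelial), 43.7% in MC-like (myoid), 47.7% in pericyte-like and 49.5% in germ-like cells, but 58.0% (56.4% to 59.7%) in stromal-like and 64.2% (58.7% to 69.4%) in lymphatic EC-like cells. Macrophage-like cells held 32.5% of it, from 40 UMIs of the 6 genes. The counts in lymphocytes are taken as background here and not read as expression.

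Stromal-like cells held more of ENSBGRG00000007655 than lymphocytes in both libraries, unevenly so in the cattle-yak. There they held ENSBGRG00000007655 at 267 CPM (255 to 279), above the 110 CPM of T/NK-like cells, and after thinning 20.1% of 2775 stromal-like and 9.25% of 1135 T/NK-like cells had a UMI. The 5 cattle-yak stromal-like clusters ran from 115 CPM (96.1 to 137) to 408 CPM (371 to 448), and the lowest was no higher than the T/NK-like class. The T/NK-like clusters ran from 83.1 to 238 CPM, the highest from 51 cells (179 to 311), so the ranges of the clusters overlap. Lymphatic EC-like cells, at 171 CPM (149 to 196), were also above the T/NK-like class. In the yak, where the lymphocyte background was lower, stromal-like cells (fibroblasts marked by *PDGFRA* and *DCN*) held ENSBGRG00000007655 at 37.5 CPM (31.5 to 44.4) and ENSBGRG00000007612 at 21.8 CPM (17.3 to 27.1), where lymphocytes held 8.62 and 5.25 CPM. The defensin-annotated genes did not share this, with 1.63 to 4.08 CPM in yak stromal-like and 4.00 to 8.37 CPM in yak T/NK-like cells. ENSBGRG00000007612 was also raised in yak pericyte-like cells, at 26.0 CPM (17.9 to 36.5), where it gave 56.9% of the 58 UMIs of the 6 genes. An unnamed yak cluster with endothelial and pericyte markers held it at 14.6 CPM, from 127 UMIs in 102 of 456 cells.

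**Figure D5:**
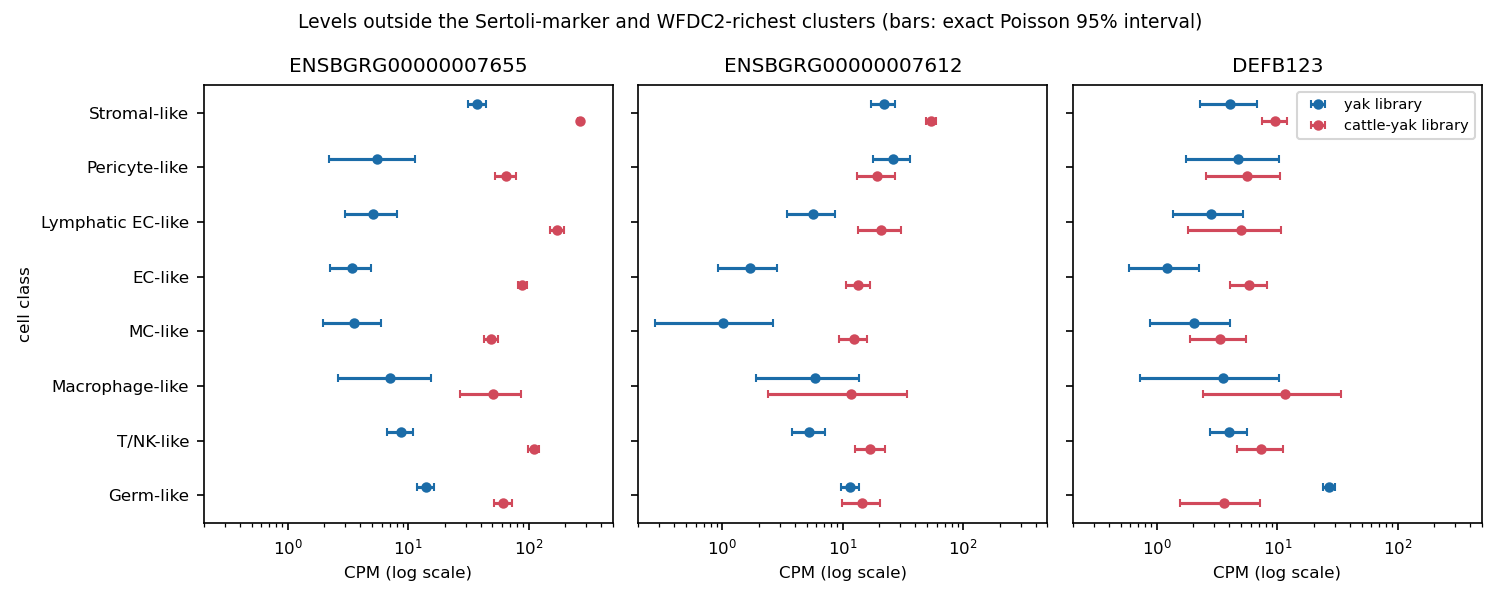
Level in CPM (x axis, log scale) of ENSBGRG00000007655, ENSBGRG00000007612 and *DEFB123* in the named classes outside the Sertoli-marker and WFDC2-richest clusters (y axis), in the yak (blue) and the cattle-yak library (red); bars are exact Poisson 95% intervals. Stromal-like cells lead for ENSBGRG00000007655 in both libraries (37.5 and 267 CPM), and germ-like cells stand out for *DEFB123* in the yak alone of the 2 libraries (26.8 and 3.62 CPM).

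*DEFB123* had a further site in yak germ cells that the other 5 genes did not share. A germ-like cluster of 116 deep cells (median 31587 UMIs) with the meiotic genes *CCNA1* and *PIWIL1* and the acrosome gene *ACRV1* held 158 UMIs of *DEFB123* in 71 cells, or 34.9 CPM (29.7 to 40.8). The other 5 genes stood between 0.884 and 2.43 CPM there. A germ-like cluster with spermatid genes such as *TNP1* and *CAPZA3* held 60 UMIs in 44 of 117 cells, or 20.4 CPM (15.6 to 26.3). A shallow germ-like cluster of 173 cells had all 6 genes at 96.8 to 403 CPM, yet from 4 to 9 cells, and 1 cell gave 68 of its 104 UMIs of ENSBGRG00000007655. In the cattle-yak germ-like cells *DEFB123* stood at 3.62 CPM (1.56 to 7.14), and that class held 161 cells in 4 clusters, none of which had *ACRV1* or *TNP1* enriched.

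*WFDC2* outside its cluster was low throughout. In lymphocytes it was 7.12 CPM in the yak and 5.65 CPM in the cattle-yak. Beside the Sertoli-marker cluster, the next highest yak cluster was an unnamed one with early germ cell genes, where 1 cell gave 77 of 89 UMIs. An unnamed cluster of 760 shallow cells followed at 30.3 CPM (20.3 to 43.5). In the cattle-yak the next value was 13.7 CPM, where 1 cell gave 63 of 74 UMIs. The WFDC2-richest and Sertoli-marker clusters together held 82.4% of the yak and 81.0% of the cattle-yak *WFDC2* UMIs.

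Relatives of these genes were mostly quiet or placed elsewhere. Of 11 beta-defensins in the annotation, *DEFB123* alone had more than 3 UMIs in the kept cells of either library. Of 9 WAP domain genes 4 were measured, and the count at least 2-fold higher in the WFDC2-richest cluster was 1 of 4 in both libraries, which was *WFDC2* itself. In the Sertoli-marker cluster it was 1 of 4 in the yak, *SLPI* from 11 UMIs, and 0 of 4 in the cattle-yak. *WFDC10A*, also a WAP domain gene, had too few UMIs for the filter, but all of its kept UMIs lay in the WFDC2-richest clusters: 2 of 2 in the yak and 11 of 11, in 9 cells, in the cattle-yak. *SLPI*, an inhibitor of neutrophil elastase with WAP domains, was highest in unnamed clusters with early germ cell genes, at 377 CPM in the yak and 588 CPM in the cattle-yak. *WFDC1* peaked in unnamed contractile clusters next to the MC-like cells (450 and 355 CPM).

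Among the cystatins with a symbol, the widely made *CST3* was higher in the Sertoli-marker clusters than in the other cells, by a log2 ratio of 1.05 in the yak (2497 CPM) and 1.39 in the cattle-yak (7022 CPM). It made up the count of 1 of 4 measured cystatins at least 2-fold higher in the yak and 1 of 2 in the cattle-yak, and it was higher still in yak macrophage-like cells (12596 CPM) and cattle-yak stromal-like cells (8602 CPM). *CST7*, a cystatin of cytotoxic lymphocytes, had its highest level in T/NK-like cells, with 590 and 419 CPM. *CST8* and *CSTL1*, cystatins of the testis, had 551 of 571 and 1078 of 1113 kept yak UMIs in germ-like cells and 0 in the kept cattle-yak cells. No symbol-bearing cystatin thus had the pattern of the 3 cystatin-annotated genes.

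Of 15 listed secreted epithelial or antimicrobial genes, 4 were measured in the yak and 2 in the cattle-yak. *LTF*, which encodes the iron-binding lactoferrin, was at least 2-fold higher in the WFDC2-richest cluster of both libraries, at 656 CPM (577 to 743) and 390 CPM (324 to 464). It was also higher in the Sertoli-marker clusters, from 4 and 7 UMIs. *LCN2* was at 0 UMIs in both WFDC2-richest clusters.

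Across the 60 clusters of at least 20 cells, which share 2 libraries and differ in depth, the level of *WFDC2* on the log2(CPM + 10) scale went most with ENSBGRG00000007732 (Pearson r = 0.94), *TPD52L1* (0.92) and *CHRDL2* (0.92). Its correlation with the other 6 genes ran from 0.01 to 0.43. Those 6 correlated with each other at 0.58 to 0.94. *INHA* was among the 3 closest other genes for 5 of them, first for ENSBGRG00000015536 (0.92) and ENSBGRG00000007806 (0.89), whereas *DEFB123* went most with *VSIG1* (0.91) and ENSBGRG00000007612 with *AARD* (0.87). These coefficients describe clusters that were partly defined by such genes, and no test was made of them. Because the libraries are pooled, differences in level between them also enter. In T/NK-like cells these were log2 3.67 for ENSBGRG00000007655 and 2.77 for ENSBGRG00000007806. How much they add to the coefficients was not tested.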

How the data were processed

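Single-cell 3' RNA libraries of 1 yak and 1 cattle-yak testis were analysed from the deposited matrices of UMI counts. Per the file headers the authors made these counts with cellranger 5.0.0, while the processing notes name Cell Ranger 2.1.1. Reads of both libraries were mapped to a yak reference, so counts of the cross may miss cattle alleles that differ, which was not tested here. The matrices hold raw counts of barcodes called as cells.

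Cells with a mitochondrial share under 30% were kept, without the upper limits on genes and UMIs that the study applied. Each library was clustered alone with scanpy 1.11.5 (2000 variable genes without the 7 genes, 30 components, 15 neighbours, Leiden resolution 1). The neighbour graph was replaced by shared-nearest-neighbour weights after first results had been seen, to make the clusters reproducible. A cluster was named from 3 or more markers of a list with a log2 ratio of at least 1 and a UMI in 10% of cells, if no other list had as many such markers or had more of its genes among the 10 leading genes of the cluster. The WFDC2-richest cluster was the one with the highest *WFDC2* CPM among clusters of at least 20 cells. The Sertoli-marker cluster was the one named SC-like. Where none was so named, as in the yak, it was the cluster of at least 20 cells with the highest summed level of the SC-like list. Scrublet called 0 yak cells, a share too low to rely on, and 251 cattle-yak cells (2.81%). No cells were removed as doublets.

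Counts were summed per group of cells and given as CPM with exact Poisson intervals, ratios with exact conditional intervals, and shares with exact binomial intervals, all at 95%. They cover counting error only. A count of 0 was read as up to 3 counts. Median depth was 2672.5 UMIs per kept yak cell and 3160.5 per cattle-yak cell. Calls of 2-fold used genes with at least 50 UMIs, or 100 UMIs over both libraries. The ratio script was tested on simulated counts. The text names the 7 genes, the measured beta-defensins, WAP domain genes and cystatins, a list of secreted epithelial or antimicrobial genes, the Sertoli and epithelial markers, and the 3 genes most like each of the 7. The 7 genes and these lists were chosen with earlier results of these data known. The second clustering, the sum without *WFDC2* and the minimum of 3 UMIs were added after the data were seen. No sequence is printed, because no genome of the build used was at hand.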

Additional observations from a re-analysis of the deposited data

Results flagged for a closer look

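*WFDC2* went opposite ways in the Sertoli-marker clusters of the libraries, relative to the other kept cells. In the yak its log2 ratio, without an added CPM, was 0.49 (counting interval -1.13 to 1.72), from 5 UMIs that all lay in 1 cell. In the cattle-yak it was -3.08 (-5.36 to -1.53), from 3 UMIs. The difference between the libraries was not tested, since each has 1 animal, and the yak value rests on that 1 cell.

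The cells left out for a mitochondrial share of 30% or more carried the 7 genes above the level of the kept cells in both libraries. Summed, the genes stood at 514 CPM (482 to 548) in the 877 yak cells left out, against 112 CPM in the kept cells. In the 1310 cattle-yak cells left out they stood at 7988 CPM (7915 to 8061), against 414 CPM. In the cattle-yak, *WFDC2* alone was lower in the cells left out, at 47.2 CPM against 69.6 CPM, and the other 6 genes were higher by log2 ratios of 4.45 (ENSBGRG00000007612) to 5.00 (*DEFB123*). In the yak all 7 were higher, by 0.46 for *WFDC2* and by 1.81 (*DEFB123*) to 2.89 (ENSBGRG00000007806) for the others.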

How the results depend on the processing

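The values below are log2 ratios of the 7 genes summed, in this order: the yak WFDC2-richest cluster against other yak cells (6.03 in the report), the cattle-yak Sertoli-marker cluster against other cattle-yak cells (5.54), the first of these clusters against the second (-1.38), and the cattle-yak against the yak library over kept cells (1.89). All 4 kept their sign under every alternative run. With genes and UMIs limited to 2 SD they were 5.69, 6.14, -1.90 and 1.66. With a mitochondrial share under 20% they were 7.47, 5.94, -0.69 and 1.80, and without that limit 5.40, 5.74, -2.09 and 3.51. With each cell weighted equally they were 4.88, 6.07, -2.15 and 1.73. Without *WFDC2* in the sum, added after the data were seen, they were 2.86, 5.94, -4.64 and 2.16. The first 3 were 7.40, 6.04 and -1.22 with 3000 variable genes, 5.81, 6.02 and -2.08 with the 7 genes kept among the variable genes, and 6.34, 6.77 and -2.38 without the 10% highest Scrublet scores. The first ratio and the cluster-to-cluster ratio were 7.55 and -0.69 at resolution 0.5, and 7.38 and -0.76 with 20 components. The cattle-yak cluster ratio and the cluster-to-cluster ratio were 6.05 and -1.88 at resolution 2. A CPM denominator without mitochondrial and rRNA features gave 5.67, -1.74 and 2.12 for the last 3 ratios. Where the first value rose above 7, the yak Sertoli-marker and WFDC2-richest cells formed 1 cluster of 95 to 109 cells, so both kinds of cell entered the sum. The cause of the other shifts was not tested.

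The thinned share of *WFDC2* in the yak WFDC2-richest cluster (63.5%) was 45.5% with a mitochondrial share under 20%, 43.4% at resolution 0.5, 45.2% with 3000 variable genes, 45.8% with 20 components, and 81.0% when thinned to 2000 UMIs. Except for the thinning, these were the settings in which the yak Sertoli-marker and WFDC2-richest cells formed 1 cluster, so both kinds of cell entered the share. The number of genes at least 2-fold higher was 1429 in the yak WFDC2-richest and 948 in the cattle-yak Sertoli-marker cluster. At 4-fold it was 405 and 214, and without a count filter 2169 and 1520. For the cattle-yak cluster it was also 1671 without the 10% highest Scrublet scores, 1635 with equal cell weights, and 557 at a minimum of 200 counts. In the second clustering, added after the data were seen, *WFDC2* was at 0 CPM in the yak subcluster richest in the other 6 genes at each resolution, and in the cattle-yak one it went from 208 CPM to 0 at resolution 1. No paired analysis was possible because each group has 1 library. Depth limits the low values most: in the yak Sertoli-marker cluster 1 UMI is worth 9.79 CPM.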
